A study of Mus musculus with 26 samples.

Results

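Genes of blood vessel and early blood formation were followed through gastruloids that carry edited HoxB clusters. They were the rows of the count table whose gene name was Etv2, Tal1, Lmo2, Kdr, Flt1, Pecam1, Cdh5, Tek, Tie1 or Erg, so 10 of 55141 genes, and each name matched 1 row. Each was looked up in all 26 libraries, and all 10 passed the filter on low counts of every comparison below.

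Endothelial cells line blood vessels and arise from mesoderm next to the first blood cells. The ETS factor Etv2 is switched on for a short time in their common precursors and, with the partners Tal1 and Lmo2, starts a program that includes the VEGF receptors Kdr and Flt1. Formed endothelium is known by the receptors Tek and Tie1, the ETS factor Erg and the junction proteins Pecam1 and Cdh5.

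Gastruloids grow from aggregated embryonic stem cells and lengthen into a body of trunk and tail tissues, and polyadenylated RNA of mouse gastruloids of 8 lines was sequenced here. The allele HoxB Del/Del(i9-13) was common to every line, controls included, and Del stands for the line with that allele alone. Ins carries Ins(CBS5-10) as well. In 3 lines a second deletion followed the insertion, Del(CBS5-10) in InsDel5to10, Del(CBS7-10) in InsDel7to10 and Del(CBS8-10) in InsDel8to10. The alleles Ins(CBS5-10):Inv(CBS5-10) were studied in the clones InvClone1 and InvClone2, and InvDel7to10 adds Del(CBS7-10) to that inversion. The 120h stage (hours after aggregation) had 18 libraries, of which InvClone1 gave 4, Del 3, Ins 3, InsDel5to10 2, InsDel7to10 2, InvClone2 2, InsDel8to10 1 and InvDel7to10 1. The 144h stage had 2 from InvClone1 and 1 from each of InsDel8to10, InvDel7to10, Ins and Del, while 96h and 168h were covered by InvClone1 alone with 1 library each. Each library also carries 1 of 4 library labels (ISML_first, ISML_second, ISML_third, TruSeq_second). No unedited line was analysed here, and the number of gastruloids behind a library, not given in the sources, is unknown.

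Totals ran from 18746411 to 37716547 counts per library. InvClone1 at 144h replicate 2 stood apart, with a mitochondrial share of 0.0864%, while the other 25 ranged from 0.587% to 1.51%, and it enters the stage comparison below. The TruSeq library of InvClone1 at 120h numbered 2 detected 54.8% of the genes in the table, where the other 25 libraries detected 37.5% to 43.4%. Pairwise chi-square statistics among the 4 libraries of InvClone1 at 120h, which span 3 labels, ran from 117 to 138 (divided by the degrees of freedom) in pairs with the ISML_third library, replicate 1, and from 33.0 to 66.4 in the other pairs. Earlier results of these data set apart these 3 libraries and, for their line and label, the other 3 ISML_third libraries of InvClone1, and the time course below rests on ISML_third libraries of InvClone1 alone. In bulk RNA fewer cells of a type and less RNA per cell cannot be told apart.

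In the deposited table (mm10; starts written here counting from 1) Etv2 (ENSMUSG00000006311) spans chromosome 7, 30633616 to 30635852, and Lmo2 (ENSMUSG00000032698) chromosome 2, 103957986 to 103981878. Tal1 (ENSMUSG00000028717), Tek (ENSMUSG00000006386) and Tie1 (ENSMUSG00000033191) lie on chromosome 4, at 115056426 to 115071755, 94739289 to 94874976 and 118471191 to 118490061. Kdr (ENSMUSG00000062960) and Flt1 (ENSMUSG00000029648) lie on chromosome 5, at 75932827 to 75978458 and 147561604 to 147726011. Pecam1 (ENSMUSG00000020717) spans chromosome 11, 106654217 to 106750628, Cdh5 (ENSMUSG00000031871) chromosome 8, 104101625 to 104144511, and Erg (ENSMUSG00000040732) chromosome 16, 95359169 to 95586593.

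The bases just before the start of a gene are shown first, because ETS factors such as Etv2 and Erg bind the core GGAA and the results turn on Etv2 itself and on the receptors. RefSeq (GRCm38.p6) starts were at hand for 7 of the 10 genes, 10 starts in all. Lmo2, Pecam1 and Cdh5 had no entry in the table. The 250 bases before the RefSeq start of Etv2 and Tek, which fell between stages, and of Flt1 and Tie1, which did not pass that test, read as follows, 5′ to 3′ on the strand of the gene, with GGAA on either strand (TTCC on the strand shown) in capitals. For Tie1 the RefSeq start lies inside the deposited span, so 212 of its 250 bases fall within that span and 38 outside.
Etv2 chr7:30635853-30636102 (minus strand): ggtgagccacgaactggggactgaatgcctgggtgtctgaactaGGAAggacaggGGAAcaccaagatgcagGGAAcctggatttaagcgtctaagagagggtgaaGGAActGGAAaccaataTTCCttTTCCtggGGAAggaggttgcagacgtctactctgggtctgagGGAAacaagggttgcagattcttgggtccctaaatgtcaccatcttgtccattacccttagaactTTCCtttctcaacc
Tek chr4:94739039-94739288 (plus strand): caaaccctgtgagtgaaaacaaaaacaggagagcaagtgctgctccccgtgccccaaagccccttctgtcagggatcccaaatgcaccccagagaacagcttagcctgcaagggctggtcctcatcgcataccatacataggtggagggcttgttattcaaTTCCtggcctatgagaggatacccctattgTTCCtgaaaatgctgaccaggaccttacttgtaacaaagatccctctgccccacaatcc
Flt1 chr5:147726012-147726261 (minus strand): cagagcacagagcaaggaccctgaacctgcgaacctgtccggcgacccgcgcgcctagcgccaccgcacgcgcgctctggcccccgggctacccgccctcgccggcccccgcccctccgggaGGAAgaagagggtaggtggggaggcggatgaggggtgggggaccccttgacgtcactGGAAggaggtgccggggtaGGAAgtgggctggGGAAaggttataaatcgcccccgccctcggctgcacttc
Tie1 chr4:118489850-118490099 (minus strand): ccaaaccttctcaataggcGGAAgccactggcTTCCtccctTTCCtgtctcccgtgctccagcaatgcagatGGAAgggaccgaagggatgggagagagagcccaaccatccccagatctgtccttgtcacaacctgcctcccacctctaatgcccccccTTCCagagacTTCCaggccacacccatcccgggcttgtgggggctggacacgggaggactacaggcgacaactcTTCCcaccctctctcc
The Etv2 stretch held 10 copies of GGAA, the Tie1 stretch 7, those of Flt1 and Kdr 4 each and that of Tek 2. The median over all 32851 stretches of the same length was 3 copies, and 33.4% of them held 4 or more. Of the 10 member starts 9 held GGAA, against 93.4% of all starts, and the exception was 1 of the 3 starts of Erg. The longer ETS form CAGGAA stood in 4 of 10 (25.7% of all starts) and CCGGAA in 1 (12%, Kdr); both contain GGAA. All motifs were searched on both strands. The GATA motif AGATAA stood in 2 of 10 (9.99%) and the E-box CANNTG, which Tal1 binds with partners, in 4 of 10 (66.2%). These are letter matches in a short window and no measure of binding. Of the genes that fell between stages, Etv2 held 10 copies, Tek 2 and Tal1 4 and 3 at its starts. Of those that did not pass the test, Tie1 held 7, Flt1 and Kdr 4 each and Erg 0, 4 and 2 at its starts. Any part of these copies in the changes was not tested.

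Levels differed widely between the genes. On the length-corrected FPKM scale that the authors deposited, the medians over the 26 libraries were 10.4 for Lmo2, 4.00 for Kdr, 2.64 for Cdh5, 1.63 for Flt1, 1.15 for Tie1, 1.11 for Etv2, 0.903 for Erg, 0.745 for Pecam1, 0.579 for Tek and 0.400 for Tal1. By the mean, Tie1 (1.77 ± 1.93 FPKM, SD over 26 libraries of all groups) came before Flt1 (1.46 ± 1.06), and the other 8 kept their rank. Neighbours in this order differed by less than the SD over libraries, also Lmo2 (11.04 ± 7.91) and Kdr (4.02 ± 3.03). In CPM (counts relative to the TMM-scaled library total), the highest library exceeded the lowest by 15.6-fold for Etv2, 25.7-fold for Lmo2, 33.2-fold for Kdr and 39.0-fold for Flt1. Tek spanned 60.2-fold and Pecam1 50.2-fold. Cdh5 spanned 135-fold and Tie1 147-fold, from lowest libraries with 7 counts each, and Tal1 and Erg had libraries with 1 and 0 counts.

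Lmo2 stood outside the common pattern. For each gene the log2(CPM + 0.5) was set against the mean of the other 9 (standardised) over the 26 libraries, which share labels and depth. Pearson's r was 0.96 for Kdr and Erg, 0.95 for Tek, 0.91 for Tal1, Flt1 and Tie1, 0.90 for Cdh5 and 0.67 for Etv2 and Pecam1, but -0.04 for Lmo2. Over the 18 libraries of 120h alone, r was 0.87 for Etv2, 0.89 for Pecam1 and 0.63 for Lmo2, so the 3 genes with low values over all stages ran closer to the others within that stage. The 10 other genes whose levels were most like the mean of the members over the 26 libraries, among 12226 searched, were Flt4 (r = 0.985), She (0.966), Lcp1 (0.958), Klhl6 (0.954), Stab1 (0.952), Arhgef15 (0.951), Pde2a (0.946), Hapln1 (0.946), Rasip1 (0.943) and Rhoj (0.943). Flt4 is the VEGF-C receptor of lymphatic and early vascular endothelium.

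**Figure D1:**
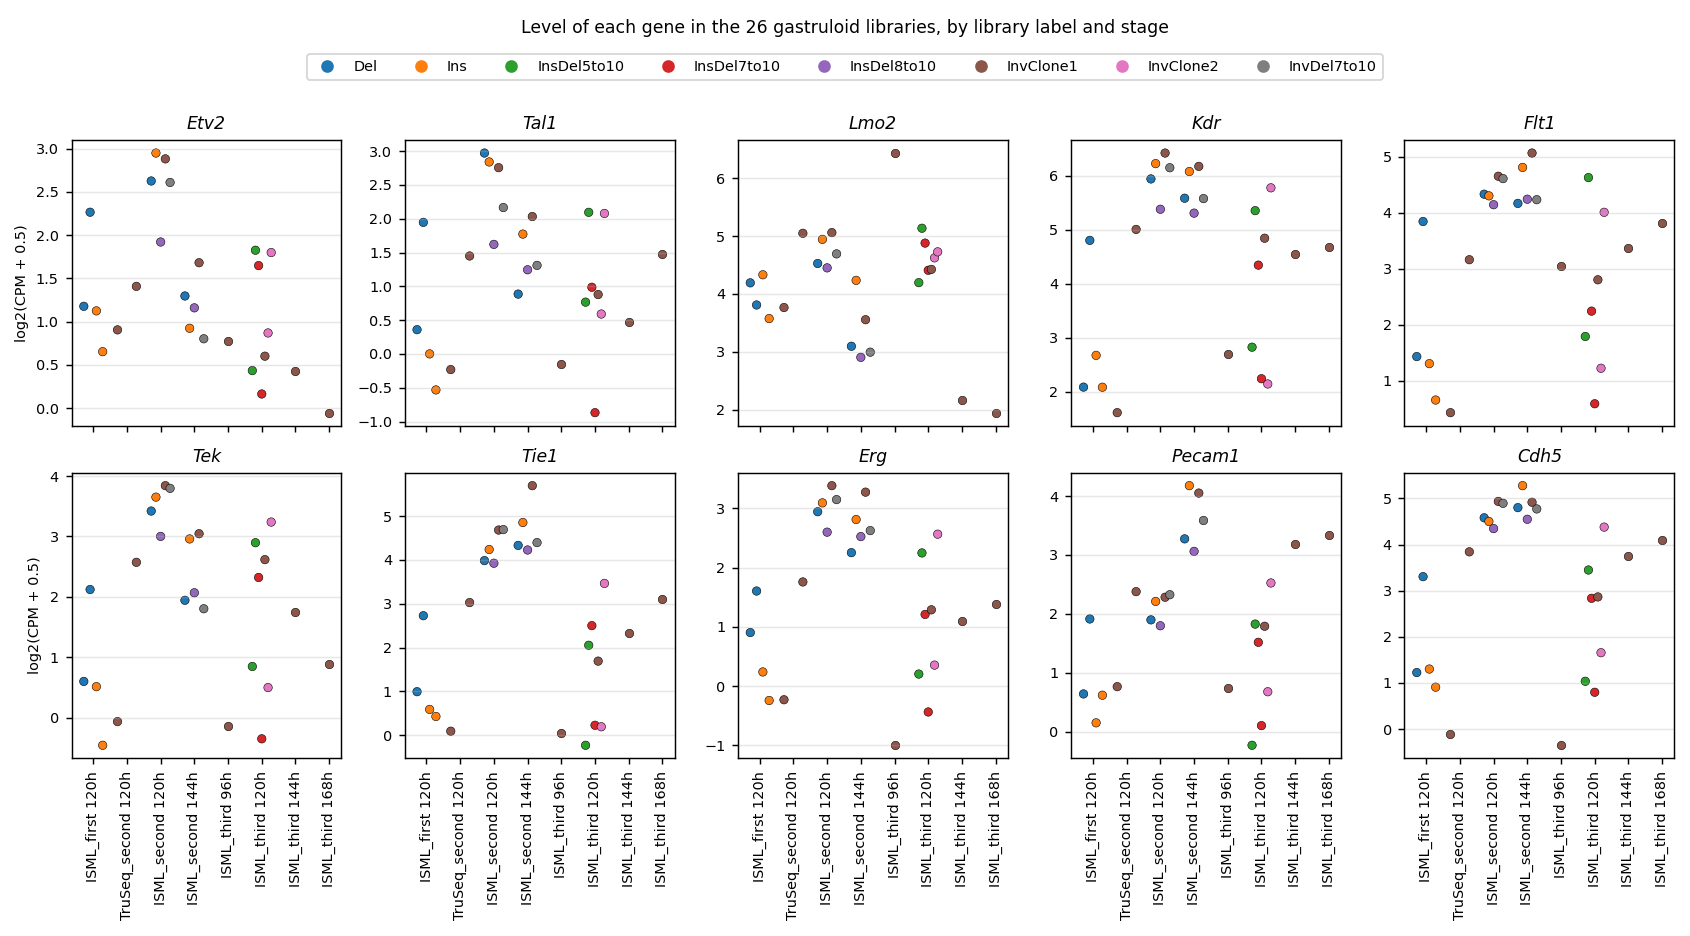
Level of each gene as log2(CPM + 0.5) in the 26 libraries, 1 point per library, by library label and stage, coloured by line; each panel has its own vertical scale. Among the libraries of 120h, those of ISML_second lie at the top for Tie1 and Erg with no overlap with the others, Tie1 is highest in a 144h library (51.4 CPM), and Lmo2 peaks in the only 96h library.

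The question of the first comparison was how these genes moved from 120h to 144h, in the 5 lines with an ISML_second library at each stage (Del, Ins, InsDel8to10, InvClone1 and InvDel7to10). The factors Etv2, Tal1 and Lmo2 and the receptor Tek fell and the junction gene Pecam1 rose, while Kdr, Flt1, Cdh5, Tie1 and Erg did not pass the test. In edgeR, with line as a term, 5 of 10 members were thus called at an adjusted p under 0.05 against 15.2% of the 15011 genes tested; 1 was higher (9.25% of all genes) and 4 lower (5.94%). At an unadjusted p under 0.05 there were 8 members and 28.7% of all genes. The members' median log2 fold change was -0.30, that of all genes -0.01.

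Etv2, the factor that starts the program, was at 5.67, 7.23, 3.29, 6.87 and 5.60 CPM at 120h in Del, Ins, InsDel8to10, InvClone1 and InvDel7to10, and at 1.96, 1.40, 1.73, 2.71 and 1.24 CPM at 144h in the same order. The stages did not overlap (as for 17.8% of all genes, 9.17% lower at 144h), and all 5 lines were lower at 144h. The mean was 1.81 ± 0.575 CPM (SD, n = 5) at 144h against 5.73 ± 1.54 at 120h, a log2 fold change of -1.64 ± 0.23 (SE; adjusted p = 0.00225). Tal1, a helix-loop-helix factor needed for blood and for vessel remodelling, read 7.35, 6.66, 2.58, 6.25 and 3.99 CPM at 120h and 1.35, 2.92, 1.87, 3.59 and 1.98 CPM at 144h. It was lower in all 5 lines, though InsDel8to10 at 120h lay below the highest 144h values. Tal1 fell by 1.15 on the log2 scale (SE 0.27, adjusted p = 0.0237), and this call was lost without Ins (adjusted p = 0.0820) or without InvDel7to10 (0.0712). Lmo2, the bridging protein that holds Tal1 in its complex, read 22.5, 30.3, 21.4, 32.9 and 25.3 CPM at 120h and 8.04, 18.3, 6.98, 11.2 and 7.46 CPM at 144h. Its stages did not overlap either, and Ins had the smallest drop. The change of Lmo2 was -1.40 ± 0.15 (adjusted p = 8.37e-04).

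Of the receptors, only Tek, which binds angiopoietins, was called. It read 10.2, 12.1, 7.50, 13.8 and 13.4 CPM at 120h and 3.35, 7.28, 3.69, 7.76 and 2.99 CPM at 144h in the same order of lines. InvClone1 at 144h lay just above InsDel8to10 at 120h, and every line was lower at 144h. Tek changed by -1.22 ± 0.22 (adjusted p = 0.00744). Tie1, the related receptor without a known high-affinity ligand of its own, moved the other way in 4 of 5 lines, with a change of 0.43 ± 0.18 that did not pass (adjusted p = 0.153). In InvClone1 it went from 25.2 to 51.4 CPM and in InvDel7to10 from 25.4 to 20.6 CPM. The single lines thus ranged from -0.30 (InvDel7to10) to 1.01 (InvClone1) for Tie1, and without InvDel7to10 its change was 0.61 with an adjusted p of 0.0492. Kdr, the main signalling receptor for VEGF, stood at 66.5 ± 16.6 CPM at 120h and 54.6 ± 14.1 at 144h, a change of -0.26 ± 0.09 (adjusted p = 0.0853), lower in 5 of 5 lines. Flt1, which binds VEGF tightly and holds it from Kdr, was at 20.9 ± 3.21 and 22.9 ± 6.96 CPM, a change of 0.12 ± 0.15 (adjusted p = 0.618), higher in 3 of 5 lines.

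Pecam1, an adhesion protein of endothelial junctions, was at 3.23, 4.13, 2.98, 4.36 and 4.51 CPM at 120h and at 9.17, 17.6, 7.85, 16.1 and 11.5 CPM at 144h. The lowest 144h library was above the highest 120h library (as for 8.67% of all genes), and single lines rose by 1.26 (InvDel7to10) to 1.97 (Ins) on the log2 scale. The fit gave 1.67 ± 0.15 (adjusted p = 2.57e-04), with 12.4 ± 4.26 CPM at 144h against 3.84 ± 0.695. Embryonic stem cells also carry Pecam1. The summed level of 7 pluripotency genes was 8.21 to 28.9 CPM at 120h and 8.04 to 37.3 CPM at 144h in these libraries, and 0 of the 6 of them that were tested passed the threshold. All 6 changes were above 0, with a median of 0.50 against -0.01 for all genes, and their part in the rise of Pecam1 was not tested. Cdh5, the cadherin of endothelial junctions, was at 25.0 ± 4.51 and 29.0 ± 5.73 CPM (0.24 ± 0.13, adjusted p = 0.288) and higher in 3 of 5 lines. A predicted gene, Gm29682, overlaps the Cdh5 locus in the table, and since no strand setting is given the reads of Cdh5 are uncertain to that extent. Erg, an ETS factor that keeps endothelial identity, was at 7.81 ± 1.60 and 6.17 ± 1.86 CPM (-0.34 ± 0.14, adjusted p = 0.148), lower in 5 of 5 lines.

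Leaving out both libraries of 1 line kept 4 to 7 members past the threshold. Without InvClone1, the line of the library that stood apart, 7 were called: Kdr (-0.28, adjusted p = 0.0322) and Erg (-0.42, 0.0275) joined the 5. The count over all genes moved more, from 2280 to 4831 without InvClone1, 1365 without InsDel8to10, 1366 without Del and 1413 without InvDel7to10.

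**Figure D2:**
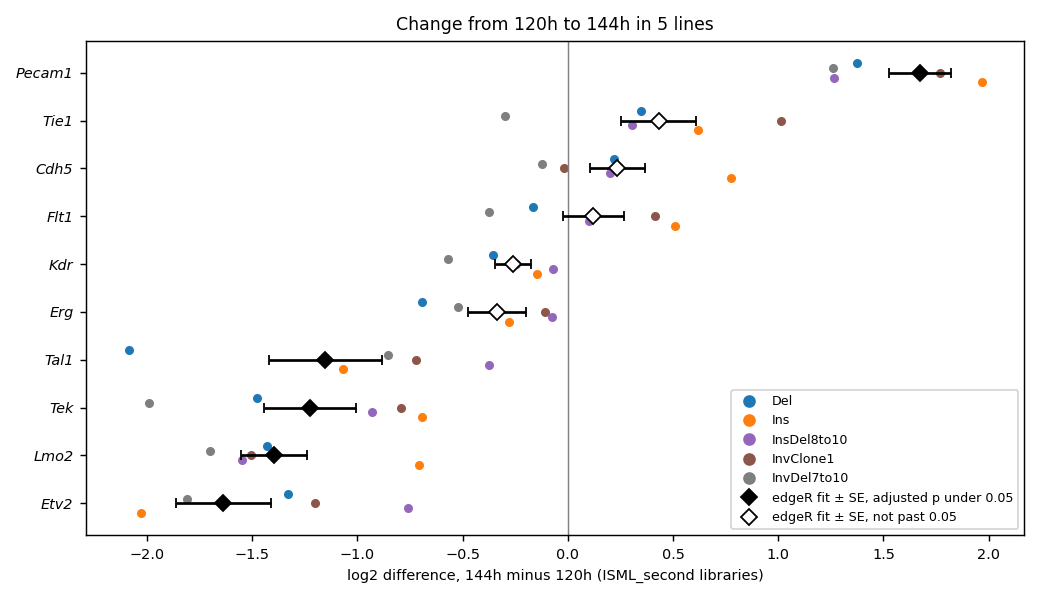
Difference from 120h to 144h for each gene on the log2 scale, with 1 coloured point per line and a diamond with SE for the edgeR fit (filled where the adjusted p is under 0.05). Pecam1 lies right of 0 in 5 of 5 lines, and Etv2, Lmo2, Tek and Tal1 lie left of 0 in 5 of 5.

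The same 2 stages of InvClone1 were also sequenced under ISML_third, in libraries that the fit did not use. There 10 of 10 members had the sign of the fit, including the 5 that had not passed. This is 1 library a stage, both among those set apart in earlier results, with no test and with counting error only. The share of all genes with the sign of the fit was not worked out, and InvClone1 is also 1 of the 5 lines in that fit. Pecam1 went from 2.96 to 8.65 CPM (ratio 2.93, 95% counting interval 2.196 to 3.95) and Lmo2 from 21.0 to 3.99 CPM (0.190, 0.150 to 0.239). Tek went from 5.63 to 2.88 CPM (0.512, 0.373 to 0.697). For Etv2 the interval spanned 1, at 1.02 and 0.843 CPM (0.830, 0.425 to 1.61), as it did for Tal1 (0.663, 0.355 to 1.21) and Erg (0.846, 0.529 to 1.35).

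ISML_third also held the earliest and the latest stage, so the genes could be ordered by their time course in InvClone1 with 1 library a stage (96h, 120h, 144h and 168h). All 4 are among the libraries set apart in earlier results, and no other label covers 96h or 168h. Some genes were highest at the start, some at 120h and some at the end. Lmo2 was highest at the start, with 86.1, 21.0, 3.99 and 3.35 CPM, a ratio of 0.244 (0.220 to 0.270) over the first step. Etv2 was low throughout, at 1.22, 1.02, 0.843 and 0.464 CPM, from 30 counts at 96h to 13 at 168h, and none of its 3 steps had an interval that left out 1.
Tek and Kdr peaked at 120h. Tek read 0.406, 5.63, 2.88 and 1.36 CPM, a ratio of 13.9 (7.29 to 29.7) over the first step. Kdr read 6.05, 28.3, 23.1 and 25.1 CPM, a ratio of 4.67 (3.90 to 5.63) over the first step. Cdh5, Tie1 and Pecam1 were higher at each later stage. Cdh5 read 0.284, 6.79, 13.0 and 16.6 CPM, a ratio of 23.9 (11.3 to 60.5) over the first step, from 7 counts. Tie1 read 0.528, 2.72, 4.52 and 8.07 CPM. Pecam1 read 1.177, 2.96, 8.65 and 9.67 CPM, and only its last step had an interval that included 1 (ratio 1.12, 0.927 to 1.35). Flt1 was already at 7.75 CPM at 96h and then read 6.46, 9.85 and 13.5 CPM. Tal1 read 0.406, 1.34, 0.887 and 2.28 CPM. Erg had 0 counts at 96h, which allows up to 0.122 CPM (3 counts), and 42 counts at 120h, at least 15.9-fold above that floor (lower 95% counting bound of the ratio 12.4), and then 1.64 and 2.11 CPM. In this 1 library of 96h Lmo2, Flt1 and Kdr were thus at 6.05 CPM or more when Erg and Cdh5 were at or near the floor. Etv2 and Pecam1 had 30 and 29 counts there, Tie1 had 13, and Tal1 and Tek had 10 each.

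**Figure D3:**
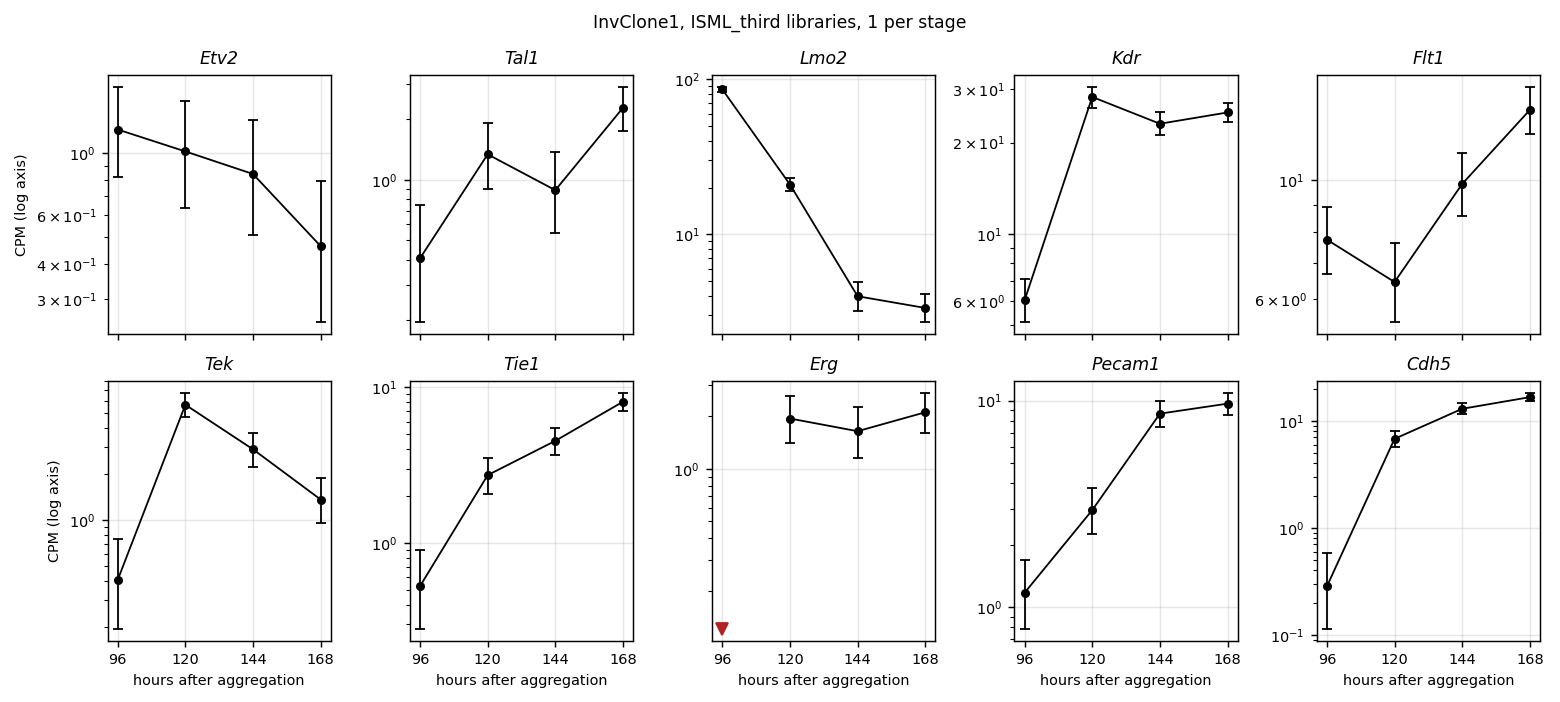
CPM of each gene (log axis) in InvClone1 under ISML_third against hours after aggregation, 1 library a stage, with exact Poisson 95% bars (counting error only). The red triangle for Erg at 96h marks the limit of 0.122 CPM that 0 counts allow, and Lmo2 falls from 86.1 CPM while Cdh5 climbs from 0.284 CPM.

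Other genes of the pathway were read from lists around the members, in the same stage comparison. Of 8 vascular ligands 4 were higher and 1 lower at 144h. Dll4, the Notch ligand of arterial and sprouting cells, changed by 1.54 ± 0.17 (adjusted p = 8.03e-04), and the Tek ligands Angpt1 by 1.44 ± 0.18 (0.00132) and Angpt2 by 1.56 ± 0.22 (0.00253), so both angiopoietins rose while their receptor fell. Vegfa, the ligand of Kdr and Flt1, changed by -0.40 ± 0.08 (0.0104). Of 10 further vascular receptors 1 was higher and 4 lower. Lowest in adjusted p were the apelin receptor Aplnr at -1.77 ± 0.16 (2.70e-04), the semaphorin and VEGF co-receptors Nrp1 at 0.78 ± 0.09 (8.51e-04) and Nrp2 at -0.49 ± 0.06 (0.00116), and Notch1 at -0.49 ± 0.07 (0.00236). Of 11 endothelial transcription factors 0 were higher and 3 lower, namely Hhex (-1.11 ± 0.17, 0.00418), Sox17 (-0.96 ± 0.16, 0.00553) and Nfatc1 (-0.72 ± 0.13, 0.00670). Sox17 is also on the endoderm list below, and the tissue behind these falls was not tested. Of 16 surface and junction genes 15 were tested, with 4 higher and 1 lower. The higher ones were Cd34 (0.88 ± 0.13, 0.00294), Robo4 (1.21 ± 0.19, 0.00394), Mmrn2 (0.88 ± 0.18, 0.0140) and Icam2 (0.72 ± 0.15, 0.0145). The medians of the ligand, receptor, transcription factor and surface lists were 0.47, -0.10, -0.16 and 0.14.

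Genes of blood formation ranged from abundant to absent. Tcf3 and Ldb1, widely expressed partners of Tal1 in its complex, had medians of 442 and 195 CPM over the 26 libraries, the stem cell factor receptor Kit 41.4 CPM, and the factors Runx1 and Myb 2.56 and 2.41 CPM, with counts in every library. Of 11 blood transcription factors 7 were tested and 1 was called, Myb, higher by 0.94 ± 0.19 (adjusted p = 0.0122). Gata1, the master factor of red cells, had 0 counts in 18 of 26 libraries, Spi1 in 19 and Gfi1b in 24. Of 12 red cell and blood products 3 were tested, and the platelet integrin Itga2b was lower by 1.08 on the log2 scale (log2 fold change -1.08 ± 0.24, adjusted p = 0.0203). The embryonic globins Hbb-bh1, Hbb-y and Hba-x had 0 counts in 25, 24 and 23 libraries, the adult globin Hba-a1 in 25, Pf4 in 25 and the leukocyte antigen Ptprc in 24. A count of 0 allows 0.0778 to 0.165 CPM, depending on the library. Globins and several defining blood cell markers were thus at or near 0, while Tcf3, Ldb1 and Kit, which other tissues also carry, were not. V2b interneurons of the spinal cord also carry Tal1 and Lmo2. The summed level of 6 genes of that lineage was 17.1 to 27.1 CPM at 120h and 53.6 to 84.0 CPM at 144h. Sox1 (1.92 ± 0.09, 3.35e-05), Lhx3 (5.72 ± 0.47, 1.94e-04) and Foxn4 (2.82 ± 0.41, 0.00290) were called higher and none of 5 tested was called lower. Gata2 and Gata3 of the same list were not called. On the log2 scale single lines ranged from -0.64 (InvDel7to10) to 0.38 (Ins) for Gata2. For Gata3 they ranged from -0.14 (Del) to 0.43 (InvDel7to10). The part of this lineage in the levels of Tal1 and Lmo2 was not tested.

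Neighbouring tissues changed between the stages as well. Of 12 cardiac and lateral mesoderm genes 8 were tested, with Gata4 (2.17 ± 0.14, adjusted p = 7.91e-05), Isl1 (1.46 ± 0.22, 0.00326) and Hand2 (1.99 ± 0.50, 0.0322) higher and Mesp1 (-2.27 ± 0.44, 0.0114) lower. Their summed level ran from 21.2 to 45.0 CPM at 120h and from 31.8 to 227 CPM at 144h. At 144h InvClone1, whose library stood apart above, had 227 CPM and Ins 163 CPM. Del, InsDel8to10 and InvDel7to10 had 31.8 to 37.8 CPM. Hand2 rose by 3.39 on the log2 scale in InvClone1 and by 1.42 in Ins, but by 0.33 to 0.57 in Del, InsDel8to10 and InvDel7to10. Of 10 endoderm genes 4 were higher and 3 lower, with sums of 279 to 401 and 352 to 523 CPM. The lower ones include Sox17, counted above among the endothelial factors as well. Of 8 trunk and tail genes 2 were higher, Pax6 and Sox2, and 6 lower. Of the lower ones Meox1 (-1.07 ± 0.09, 2.02e-04) and T (-1.89 ± 0.22, 0.00106) had the lowest adjusted p, and Msgn1 (-3.76 ± 0.49, 0.00167) and Tbx6 (-3.52 ± 0.46, 0.00173) had the largest falls. The part of these tissues in the changes of the members was not tested.

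The members differed more between libraries of 1 line and stage than nearly all other genes. The SD of log2(CPM + 0.5) within groups, over 17769 genes and 11 degrees of freedom, was 1.99 for Kdr, 1.94 for Tie1, 1.83 for Cdh5, 1.71 for Flt1, 1.69 for Tek, 1.46 for Erg, 1.34 for Tal1, 0.97 for Etv2 and Pecam1 and 0.59 for Lmo2. The median gene had 0.29. Lmo2 stood at the percentile 89.9 of all genes and the other 9 between 97.9 and 99.9. In InvClone2 at 120h, both under ISML_third, replicate 1 had 3.93 CPM of Kdr and replicate 2 had 54.4, and Tie1 differed 16.5-fold, while Lmo2 differed 1.08-fold. The members mostly shared their highest library. In each of the 7 groups with 2 or more libraries, the same library was highest for 8 or 9 of the 9 members other than Lmo2. In Del, Ins and InvClone1 at 120h and in InvClone1 at 144h it was the ISML_second library. The share of all genes that are highest in the same library was not worked out. That library was also highest in the summed level of the vascular lists in 7 of 7 groups, of the endoderm list in 7 of 7, of the cardiac list in 7 of 7, of the blood transcription factor list (mostly Tcf3 and Ldb1) in 7 of 7 and of the red cell and blood product list in 6 of 7. It was highest in trunk and tail genes in 4 of 7, in pluripotency genes in 4 of 7 and in V2b genes in 1 of 7. Several of these sums lean on a few abundant genes and need not follow the tissue a list is named for. By median CPM these were Notch1 (354), Ephb4 (171) and Nrp2 (151) among the receptors. They were Nr2f2 (107) and Hey1 (51.4) among the transcription factors, Vegfa (59.3) and Vegfb (41.2) among the ligands, and Kit (41.4) among the blood products. The part of the tissues behind these lists in the spread was not tested.

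Part of the spread ran with the library label. Del and Ins at 120h each had replicates 1 and 2 under ISML_first and replicate 3 under ISML_second. Kdr was at 3.76 and 27.5 CPM in the ISML_first libraries of Del and at 61.0 CPM in its ISML_second library, and at 5.90 and 3.75 CPM against 74.4 CPM in Ins. Both ISML_second libraries were thus above all 4 ISML_first libraries. Etv2 was at 1.76 and 4.31 against 5.67 CPM in Del and at 1.68 and 1.07 against 7.23 CPM in Ins. Tal1 was at 0.783 and 3.35 against 7.35 CPM in Del and at 0.5004 and 0.191 against 6.66 CPM in Ins. The ISML_second libraries were above all ISML_first libraries for 9 of 10 members, as for 25.7% of all genes (47.8% did not overlap in either direction with groups of 2 and 4). The exception was Pecam1, which read 1.06 and 3.26 against 3.23 CPM in Del and 0.608 and 1.03 against 4.13 CPM in Ins.
The spread within ISML_first was wide too. Its replicate 2 of Del exceeded replicate 1 in 9 of the 10 genes, with Cdh5 at 9.38 against 1.84 CPM and Flt1 at 13.8 against 2.19 CPM, and only Lmo2 was lower (13.5 against 17.8 CPM).

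None of the members passed the test of this difference. In the fit of all 26 libraries with group and label as terms, ISML_second minus ISML_first was positive for 10 of 10 members, from 0.75 ± 0.37 for Lmo2 (adjusted p = 0.292) to 3.24 ± 1.23 for Tek (0.184), with a median of 2.93 against 0.04 for all genes. Leaving out 1 of the 6 libraries gave medians from 1.86 (without Ins replicate 3) to 3.83 (without Del replicate 3). The edgeR test called 0 of 10, against 2.3% of the 17769 genes tested (1.9% higher), and 7 of 10 had an unadjusted p under 0.05, against 19.2%. Tal1 had the lowest adjusted p, 0.145 at 3.02 ± 1.01, and DESeq2 called it alone (3.17, adjusted p = 0.0212). A fit of the 6 libraries alone called Tie1 (3.17, 0.0458) and Erg (2.89, 0.0190). Without the filter on low counts edgeR called 10 of 10 at similar fold changes. Kdr then had 2.98 (adjusted p = 2.11e-54), against 3.04 (0.205) with the filter, and the cause was not tested. Leaving out any 1 of these libraries called 0 members, and the genes called fell from 409 to between 39 (without Del replicate 3) and 260 (without Del replicate 2). Beside the members, Vegfa (1.36 ± 0.30, adjusted p = 0.0394) and the atrial myosin gene Myl7 (5.47 ± 1.12, 0.0244) were the genes of the lists past the threshold. The endoderm list summed to 279 to 401 CPM in the 5 ISML_second libraries of 120h and to 60.9 to 276 CPM in the 4 of ISML_first, and the cardiac list to 21.2 to 45.0 and 11.2 to 18.2 CPM. The labels do not say whether a library label stands for a culture, a preparation or a sequencing run, and these cannot be told apart.

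Against all other 120h libraries the ISML_second libraries were also high, over 5 lines. The lowest of the 5 had 14.7 CPM of Tie1 and 5.55 CPM of Erg, and the highest of the other 13 had 10.5 and 5.41 CPM, so these 2 genes did not overlap, as for 5.52% of all genes in that direction (9.34% in either). For Kdr, Etv2, Flt1, Cdh5 and Tek 1 of the 13 reached the range of the 5, for Tal1 3, for Pecam1 4 and for Lmo2 5. The ratio of medians ran from 1.22 for Lmo2 to 12.4 for Tie1. InsDel8to10 and InvDel7to10 had 120h libraries under ISML_second only, so for these lines genotype and label cannot be told apart. InsDel8to10 had 41.2 CPM of Kdr and 3.29 CPM of Etv2, the lowest of the 5, and InvDel7to10 had 70.5 and 5.60 CPM.

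The genotype comparisons asked whether the edits of HoxB moved these genes at 120h. In the fit of all 26 libraries none of the members passed in any of 4. For Ins against Del, with 2 ISML_first and 1 ISML_second library in each, edgeR called 0 of 10, against 0.00563% of all genes (0 at an unadjusted p under 0.05, against 1.06%; DESeq2 called 0). Kdr was at 28.02 ± 40.2 CPM (SD, n = 3) in Ins and 30.8 ± 28.8 in Del, so the SD was as large as the mean. Log2 fold changes ran from -1.54 ± 1.04 for Tal1 to 0.14 ± 0.36 for Lmo2, with a median of -1.08 (close to 0 for all genes), and 9 of 10 were below 0. That median was -0.15 without Del replicate 2, -0.68 without Ins replicate 2, -1.81 without Ins replicate 3 and -1.82 without Del replicate 3, and -0.28 both with no label term and in a fit of the compared libraries alone. Leaving out any 1 of the 6 libraries called 0 members. Without the filter on low counts edgeR called Tal1, Kdr, Flt1, Cdh5 and Tie1, at nearly unchanged fold changes. Flt1 stood at -1.52 with and without the filter, and its adjusted p without it was 4.17e-06. The cause of such small p-values was not tested.

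InvClone1 against Ins also gave 0 of 10 (0 unadjusted, against 0.951% of all genes; DESeq2 0), against 0.0169% of all genes, and 0 of 10 without the 6 libraries set apart in earlier results (median 0.71). The 4 InvClone1 libraries of 120h read 28.3, 2.57, 31.7 and 85.3 CPM of Kdr, the last under ISML_second, and Etv2 read 1.02, 1.37, 2.15 and 6.87 CPM. The TruSeq pair thus held the lowest Kdr value and a middle one. Fold changes ran from 0.13 ± 0.80 (Etv2) to 1.07 ± 1.52 (Tie1), with a median of 0.69 that became 2.19 without Ins replicate 3, 0.42 with no label term or with the compared libraries alone, and 0.0054 in the blocked fit, in which replicate number is a term. With that block, Etv2 (-0.76), Tal1 (-0.02), Cdh5 (-0.09), Tie1 (-0.21) and Erg (-0.11) turned below 0. Equal numbers joined libraries of unlike labels here, so that block cannot separate number from label. The 2 lines shared only the label ISML_second, and there Ins replicate 3 and InvClone1 replicate 4 read 74.4 and 85.3 CPM of Kdr, 18.4 and 25.2 CPM of Tie1 and 7.23 and 6.87 CPM of Etv2.

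The lines made under ISML_third were compared within that label. InsDel5to10 had 6.61 and 40.5 CPM of Kdr, InsDel7to10 19.9 and 4.24 CPM and InvClone2 3.93 and 54.4 CPM, so each line held 1 high and 1 low library and all ranges overlapped. For InsDel7to10 against InsDel5to10, edgeR called 0 of 10, against 0.253% of all genes (0 unadjusted, against 10.7%; DESeq2 0). The largest difference was that of Flt1, at 4.22 and 1.00 against 2.95 and 24.2 CPM (-2.40 ± 1.43, adjusted p = 0.603), and the median of -0.72 became 0.86 without InsDel5to10 replicate 2, 0.12 without InsDel7to10 replicate 2, -1.49 without InsDel5to10 replicate 1 and -2.37 without InsDel7to10 replicate 1. For InvClone2 against InsDel5to10 the count was again 0 of 10, against 0.152% of all genes (0.0225% higher; 0 unadjusted, against 6.53%; DESeq2 0). Tie1 was at 0.640 and 10.5 against 0.350 and 3.64 CPM (1.47 ± 1.45, adjusted p = 0.854). The median of 0.28 became 2.03 without InsDel5to10 replicate 2, 1.12 without InvClone2 replicate 1, -0.47 without InsDel5to10 replicate 1 and -1.49 without InvClone2 replicate 2. In both comparisons leaving out 1 library thus turned the sign of the median. With the replicate block the median was 0.14, and that fit called Cdh5 and Tie1. Replicate 1 was the low and replicate 2 the high library of Kdr in both lines. The labels do not say that equal numbers were paired. Without the filter on low counts Tal1, Kdr and Flt1 were called in the first of them and Tie1 in the second. The SEs over the 4 genotype comparisons ran from 0.36 to 1.55, and a missed threshold does not show that the lines were alike.

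**Figure D4:**
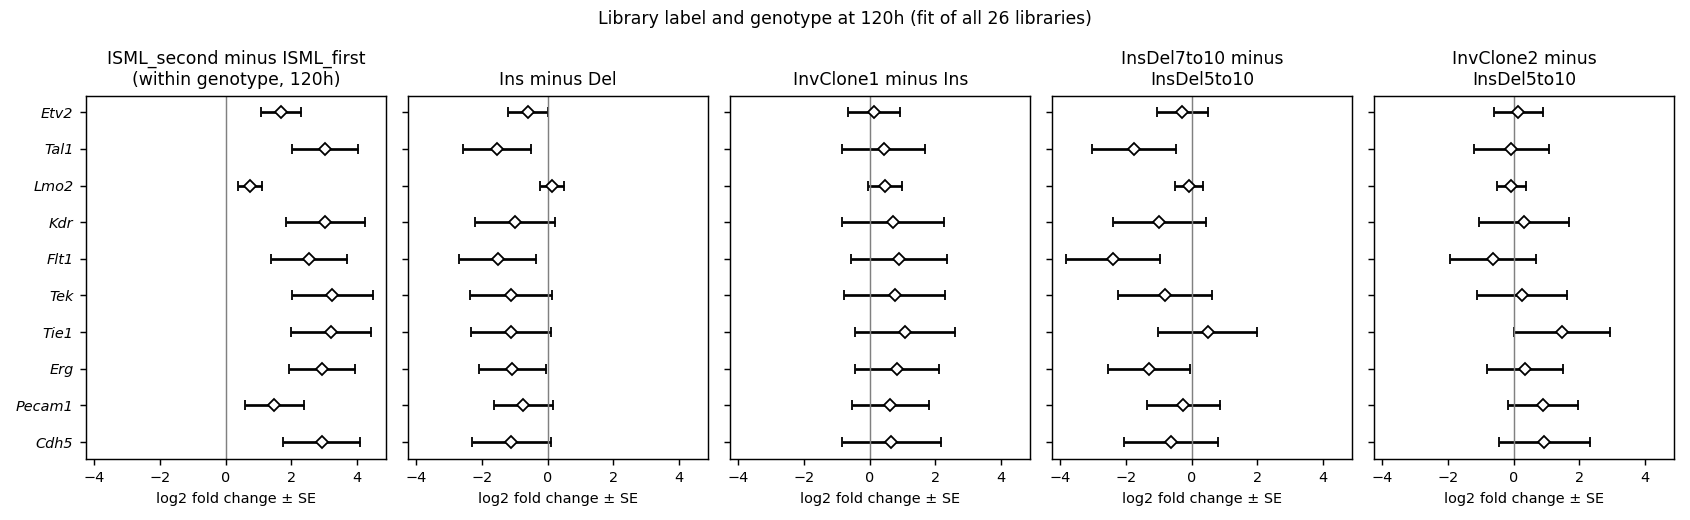
Fitted log2 fold change with SE for each gene in the label comparison and the 4 genotype comparisons at 120h; open diamonds mark an adjusted p of 0.05 or more. The label panel lies right of 0 for 10 of 10 genes, while in the genotype panels the bars of most genes cross 0.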

How the data were processed

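Per the labels, polyadenylated RNA of 26 gastruloid libraries was sequenced, made with the ISML kit except 2 (InvClone1, 120h, replicates 2 and 3; TruSeq Stranded mRNA). Line, stage and library label came from the labels. The tools named in the submitters' processing notes are STAR 2.7.10a, cutadapt 1.18 and Cufflinks 2.2.1, and the build is mm10. The authors deposited whole-number counts per gene (55141 genes) and FPKM from Cufflinks (55138 genes). The sources used here give neither the counter's version and strand setting nor the annotation. Overlapping genes are therefore uncertain. Locus starts in the table count from 0 (3611 RefSeq starts on the plus strand lay 1 base above them) and were raised by 1. Of the columns, 8 matched no sample and were not used.

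The count tests ran in edgeR 4.0.16 (R 4.3.3) as robust quasi-likelihood F-tests (TMM; filterByExpr, minimum count 10; Benjamini-Hochberg over all genes; threshold 0.05). Label and genotype came from 1 fit of all 26 libraries (group and label; 17769 genes, 8 residual degrees of freedom), in which a lone library is assumed to vary like the others. Stage came from the 10 ISML_second libraries (line and stage; 15011 genes, 4 residual degrees of freedom). On simulated counts the stage test recovered 68% of changes of 1 and 96% of changes of 2 on the log2 scale (14856 genes). Recovery was 36% and 66% for the label (16820 genes), 52% and 76% for Ins against Del (16778 genes) and 34% and 62% for InsDel7to10 against InsDel5to10 (16808 genes). The changed genes were drawn at random, so these shares describe genes at large. Apart from the planted change, the simulated counts held no differences between lines, groups or labels. The shares thus describe a simpler setting than these libraries. The members other than Lmo2 stood at percentiles 97.9 to 99.9 of spread within groups, and recovery for such genes was not measured. Totals ran from 18746411 to 37716547. Exact 95% Poisson intervals, those of ratios and the 3-count floor reflect counting error alone. Whether replicates were separate cultures is not in the labels, and p-values then measure only the spread between these libraries, which may be technical.

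Same-numbered libraries deviated together for Ins and Del (r = 0.60, 0.36 and 0.73) and less so for InvClone1 and Ins (0.13, 0.33 and 0.33). The replicate block was run as an alternative, but the labels do not say that equal numbers were paired. In Ins and Del number 3 is also the ISML_second library. For InvClone1 and Ins each shared number joined unlike labels. Number 1 joined ISML_third and ISML_first, number 2 TruSeq_second and ISML_first, and number 3 TruSeq_second and ISML_second.

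The members and the 11 lists beside them were chosen with earlier results of these data known. Named were all members and, per list and comparison, up to 4 genes past the threshold with the smallest adjusted p. Genes named for counts of 0 or for their level, Msgn1 and Tbx6 were chosen after their values were seen. Likeness was Pearson's r of log2(CPM + 0.5) with the members' mean, over genes with a mean of at least 1 CPM. Alternatives were DESeq2 1.42.0, its size factors, no filter, other designs and leaving out libraries.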

Additional observations from a re-analysis of the deposited data

How the results depend on the processing

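From 120h to 144h the members called stayed at 5 with DESeq2, with its size factors, with no filter and with no line term, and ranged from 4 to 7 when 1 line was left out; no member turned sign. For ISML_second against ISML_first 0 were called as reported, with DESeq2 size factors and without the 6 libraries that earlier results set apart (the 4 ISML_third libraries of InvClone1, its replicate 2 at 120h and its replicate 2 at 144h), against 1 with DESeq2, 10 with no filter and 2 in a fit of the compared libraries alone. With no filter the members called were 5 for Ins against Del, 3 for InsDel7to10 against InsDel5to10 and 1 for InvClone2 against InsDel5to10, and none for InvClone1 against Ins; the cause was not tested. Genes called over the whole table moved from 409 to 708 (DESeq2), 1802 (no filter) and 2421 (compared libraries alone) for the label, from 1 to 2, 89 and 0 for Ins against Del, from 3 to 9 with no filter and 303 without InvClone1 replicate 4 for InvClone1 against Ins, from 45 to 290, 957 and 4 for InsDel7to10 against InsDel5to10 (7 with no label term and 939 without InsDel7to10 replicate 2), and from 27 to 50 (DESeq2) and 383 (no filter) for InvClone2 against InsDel5to10 (6 with no label term and 3 without either InvClone2 library).

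With the replicate block 0 members were called for Ins against Del (2 genes in all), InvClone1 against Ins (0 genes) and InsDel7to10 against InsDel5to10 (3 genes), and 2 for InvClone2 against InsDel5to10, Cdh5 (0.88, adjusted p = 0.0368) and Tie1 (1.36, 0.0297), with 932 genes in all. InvClone2 and InsDel5to10 share the label ISML_third and their replicate numbers. With 2 libraries a line the 2 pairs mirror each other and give a single value (r = 0.41). Same-numbered libraries of InsDel7to10 and InsDel5to10 deviated in opposite directions (r = -0.17), and the crossed block, chosen after seeing the data, called 0 members and 4 genes. No paired analysis by replicate number was possible for the label because the number follows the label, nor for the stages, where line is already the block. With the block, turned signs were Etv2 -0.76, Tal1 -0.018, Cdh5 -0.092, Tie1 -0.21 and Erg -0.11 for InvClone1 against Ins, Pecam1 0.058 (0.041 crossed) for InsDel7to10 against InsDel5to10 and Kdr -0.026 for InvClone2 against InsDel5to10. Etv2 was at -0.21 for InvClone1 against Ins with no label term and also with the compared libraries alone.

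Leaving out 1 compared library at a time called 0 members in the label and genotype comparisons but turned signs. The log2 fold changes of those members were, for Ins against Del, Lmo2 -0.063 to 0.37 and Kdr -1.68 to 0.32. For InvClone1 against Ins they were Etv2 -0.74 to 1.176 and Cdh5 -0.077 to 1.85. For InsDel7to10 against InsDel5to10 they were Tie1 -1.60 to 3.02, Etv2 -1.65 to 0.91, Lmo2 -0.48 to 0.48, Kdr -2.47 to 0.86, Pecam1 -1.58 to 2.03, Cdh5 -2.28 to 1.32, Tek -3.83 to 0.85 and Erg -3.34 to 0.62. For InvClone2 against InsDel5to10 they were Etv2 -0.57 to 1.34, Kdr -2.58 to 2.14, Tek -2.18 to 1.92, Erg -1.66 to 2.25, Tal1 -1.31 to 0.98, Lmo2 -0.47 to 0.49, Flt1 -2.89 to 1.56, Pecam1 -0.65 to 3.17, Cdh5 -1.18 to 2.89 and Tie1 -1.66 to 3.99.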
